A study of Mus musculus with 23 samples.

Results

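The 10 genes described here, H2-K1, H2-D1, B2m, Tap1, Tap2, Tapbp, Tapbpl, Psmb8, Psmb9 and Nlrc5, encode parts of the MHC class I antigen processing pathway or its transcriptional activator. They were chosen by gene symbol from a fixed list, out of 55449 genes in the count table, and all 10 passed the filter on low counts in every comparison. Colon RNA was sequenced from male C57BL/6 Cdx2Apcf/w mice on a 60% fat diet (HFD), colonized from 6 to 8 weeks of age with Bacteroides fragilis BF638R. One strain carried an empty vector (bsh-, BF BSHlow) and the other carried a bile salt hydrolase gene of another B. fragilis strain (bsh+, BF BSHhigh), and the question was what the enzyme changes in the colon of the host. Normal colon was taken after 2 weeks (4 libraries per strain), and non-tumor and tumor tissue after 12 weeks (4 libraries each for BF BSHlow, 4 non-tumor and 3 tumor libraries for BF BSHhigh). All groups shared the genotype, in which Cre under the Cdx2 promoter deletes 1 floxed Apc allele, as well as the diet and an antibiotic pretreatment. No library came from mice with intact Apc or without B. fragilis, so that neither the deletion nor colonization itself could be compared.

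MHC class I molecules carry short peptides from proteins made inside the cell to the surface, where CD8 T cells read them. Proteins are cut by the proteasome, whose inducible catalytic subunits are encoded by Psmb8 and Psmb9, and the peptides are pumped into the endoplasmic reticulum by the transporter encoded by Tap1 and Tap2. There, tapasin (Tapbp) and the tapasin-related protein TAPBPR (Tapbpl) help to fit peptides into the heavy chains (H2-K1, H2-D1) bound to beta-2-microglobulin (B2m), and NLRC5 activates transcription of many of these genes together with factors bound at their promoters. Interferon gamma is the classical inducer of the pathway, and loss of class I expression is a known feature of some colon tumors.

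H2-K1, H2-D1, Tap1, Tap2, Tapbp, Psmb8 and Psmb9 lie on chromosome 17 of GRCm38, in the mouse MHC, and all 10 are annotated as protein coding. Psmb9 (chr17:34181987-34187764, minus strand), Tap1 (chr17:34187553-34197225, plus), Psmb8 (chr17:34197721-34201454, plus) and Tap2 (chr17:34203527-34216321, plus) follow each other within 34335 bases. Tapbp lies at chr17:33915899-33929292 (plus), H2-K1 at chr17:33996017-34000347 (minus) and H2-D1 at chr17:35262730-35267499 (plus). Outside the cluster are B2m (chr2:122147686-122153083, plus), Tapbpl (chr6:125223933-125231860, minus) and Nlrc5 (chr8:94434356-94527272, plus). Exons of Tap1 and Psmb9 overlap by 212 bases on opposite strands, and the sources do not say whether reads were counted by strand. The heavy chains resemble each other and other class I genes, and their counts were not whole numbers in 20 (H2-K1) and 23 (H2-D1) of the 23 libraries, since reads were shared out between genes, so the split between the heavy chains is less certain than their sum.

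Members were compared at the promoter because these genes are known to be switched on together. RefSeq promoter windows (GRCm38.p6) were at hand for 7 of the 10 genes, and 1 window per gene, the 250 bases before the start of its RefSeq entry, was searched on both strands for 5 short motifs, chosen with the windows known. They were TGACG (part of the X2 box), the CCAAT box, the interferon response element cores GAANNGAAA and, in its other register, GAAANNGAA (a longer element can hold both), and the kappa B pattern GGGANNNCC. TGACG was found in 17.8% of 32851 RefSeq windows of the same length, the CCAAT box in 33.8%, GAANNGAAA in 6.31%, GAAANNGAA in 7.13% and GGGANNNCC in 15.8%. The RefSeq start of some genes lies downstream of the GENCODE start given above, and the windows of H2-D1, Tap1, Tapbp, Psmb8 and Psmb9 lie wholly in exons of some annotated transcript. The windows of H2-K1 and B2m are shown because they contain no annotated exon, apart from the last base for B2m, which is not printed (249 bases). They each held TGACG, the CCAAT box and 1 interferon core, and H2-K1 also matched the kappa B pattern GGGANNNCC. This pattern has a fixed length, and a kappa B site of another length would not match it. Its absence in B2m therefore does not show that the window lacks a kappa B site. All matches stand in capitals, 5′ to 3′ on the strand of the gene, and a motif of the other strand appears as its complement. TGACG and the CCAAT box were also present in the windows of H2-D1, Tap1 and Psmb9, the windows of Tap1 and Psmb9 being largely the same DNA read in opposite directions. Tapbp held only the CCAAT box and Psmb8 none of the 5 motifs, which says only that these letters are not in this window.
H2-K1, chr17:34000348-34000597, minus strand: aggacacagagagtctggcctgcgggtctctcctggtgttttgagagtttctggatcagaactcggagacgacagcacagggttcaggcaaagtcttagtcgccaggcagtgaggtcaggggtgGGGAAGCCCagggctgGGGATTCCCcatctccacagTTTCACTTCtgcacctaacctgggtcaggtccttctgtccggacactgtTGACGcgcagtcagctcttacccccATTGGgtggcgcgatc
B2m, chr2:122147437-122147685, plus strand: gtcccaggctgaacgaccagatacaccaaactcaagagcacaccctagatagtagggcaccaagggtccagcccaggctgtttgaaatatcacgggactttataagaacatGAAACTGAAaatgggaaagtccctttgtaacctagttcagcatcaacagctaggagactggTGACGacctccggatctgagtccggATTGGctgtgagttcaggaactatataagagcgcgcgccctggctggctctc

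The heavy chain genes share the stretch from the kappa B pattern to the interferon core, here in capitals, almost letter for letter. Over 30 bases they differed by 1 substitution, A17T from H2-K1 to H2-D1, counted from the 5′ end of the stretch.
H2-K1, chr17:34000428-34000457, minus strand: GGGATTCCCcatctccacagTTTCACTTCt
H2-D1, chr17:35262924-35262953, plus strand: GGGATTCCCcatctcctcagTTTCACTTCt

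Libraries held between 12401388 and 17903008 expected counts (median 15874872). The table's header names no BF BSHhigh tumor. Their 3 columns were identified as a group only and are called replicates a, b and c. Colon epithelium markers were found in all groups, with Slc26a3 at 0 in at least 1 BF BSHlow tumor. The summed level of 6 WNT target genes, which rise when Apc is lost, was between 846 and 1758 CPM (counts per 1e6 counts, TMM scaled over all 23 libraries) in tumors and between 62.3 and 107 CPM elsewhere. Summed smooth muscle markers were between 7.08 and 206 CPM at 2 weeks and between 1513 and 8467 CPM in the non-tumor tissue of 12 weeks, so the tissue sampled at these times differed in makeup.

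Levels are given in CPM, and levels of different genes are compared only per kilobase of exon. The length used joins all annotated exons of a gene and can exceed that of its main transcript. The order below therefore depends on the annotation and is uncertain where levels are close. In BF BSHhigh colon at 2 weeks, B2m had the highest level per length, 1254 CPM per kb on average (n = 4), followed by H2-K1 with 612 and H2-D1 with 462. Tapbp followed with 86.1 CPM per kb, Tapbpl with 36.2, Psmb8 with 23.2, Tap2 with 15.1, Psmb9 with 11.8 and Tap1 with 11.1. Nlrc5, the activator, was lowest with 1.34 CPM per kb. In BF BSHlow tumors the same genes led and ended the order, with B2m at 245 CPM per kb and Nlrc5 at 0.673, but H2-D1 (141) was above H2-K1 (94.0).

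**Figure D1:**
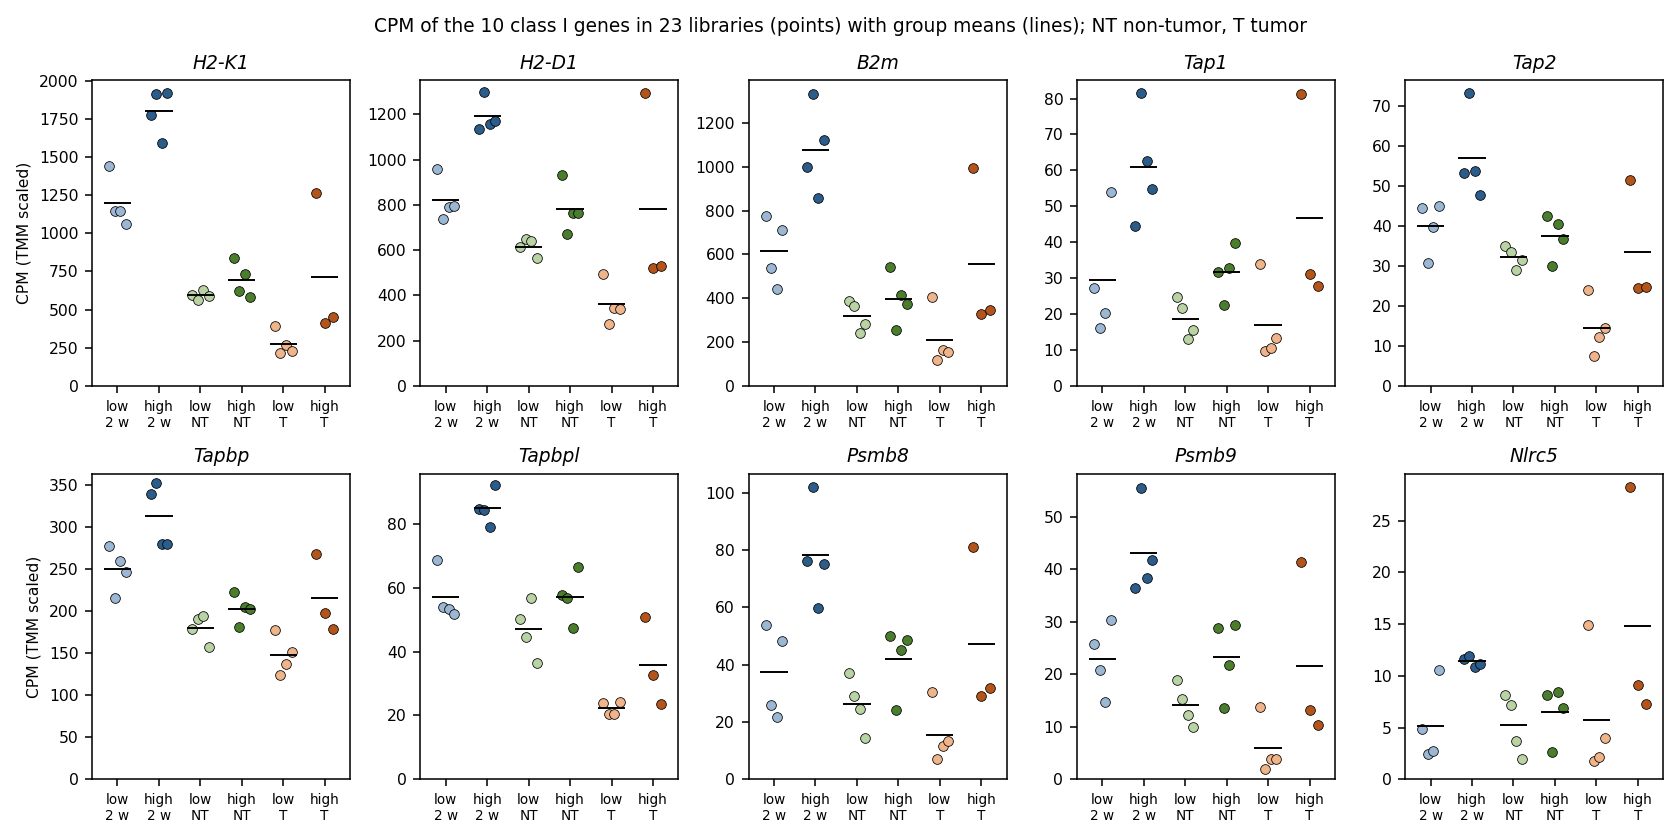
CPM of each of the 10 genes (vertical axis, from 0) in each of the 23 libraries (points), by strain and tissue, with group means as lines. BF BSHhigh colon of 2 weeks (dark blue) has the highest group mean for every gene but Nlrc5, BF BSHlow tumors (light orange) the lowest for every gene but Nlrc5, and replicate a of the BF BSHhigh tumors lies far above replicates b and c.

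BF BSHhigh colon of 2 weeks had the highest group mean for 9 of the 10 genes, and BF BSHlow tumors the lowest for the same 9. For 7 of these 9 genes, all but Tap1 and Psmb8, the libraries of BF BSHhigh colon at 2 weeks did not overlap those of the next group in the order. At the other end, BF BSHlow tumors lay apart from the next group for H2-K1, H2-D1 and Tap2. Neighbouring groups between these ends overlapped, except that H2-D1 lay apart between the non-tumor tissues of the strains. The gene with another order of means was Nlrc5, which was highest in BF BSHhigh tumors and lowest in BF BSHlow colon of 2 weeks. Its medians had the same ends as the other genes. They were highest in BF BSHhigh colon of 2 weeks (11.4 CPM, against 9.11 CPM in BF BSHhigh tumors). The lowest median was that of BF BSHlow tumors (3.07 CPM, against 3.80 CPM in BF BSHlow colon of 2 weeks).

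The comparison of BF BSHhigh with BF BSHlow in normal colon asked what the enzyme changes after 2 weeks of colonization. All 10 genes were higher on average in BF BSHhigh colon, by between 1.25-fold (Tapbp) and 2.15-fold (Nlrc5), but none passed an adjusted p of 0.05 from edgeR over all 13753 genes tested. H2-K1, a heavy chain, had 1443, 1144, 1148 and 1058 CPM in BF BSHlow colon and 1774, 1915, 1592 and 1917 CPM in BF BSHhigh colon. These did not overlap, with a log2 fold change of 0.58 ± 0.13 (SE, edgeR adjusted p = 0.581). Its partner chain B2m had 774, 537, 442 and 710 CPM in BF BSHlow colon and 998, 1334, 857 and 1124 CPM in BF BSHhigh colon. The lowest BF BSHhigh library was again above the highest BF BSHlow library, and the log2 fold change was 0.80 ± 0.20 (SE, edgeR adjusted p = 0.581).

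Among the proteasome subunits, Psmb8 had 53.9, 26.0, 21.6 and 48.2 CPM in BF BSHlow colon and 76.3, 102, 59.8 and 75.2 CPM in BF BSHhigh colon, and its log2 fold change was 1.05 ± 0.28 (SE, edgeR adjusted p = 0.607). Tapbpl, the peptide editor outside the MHC, had the smallest adjusted p of the 10 genes (0.340, edgeR). It had 68.8, 54.1, 53.4 and 51.7 CPM in BF BSHlow colon and 84.7, 84.4, 79.0 and 92.1 CPM in BF BSHhigh colon, a log2 fold change of 0.57 ± 0.11 (SE). The transporter gene Tap1 was the 1 member with overlap, because replicate 4 of BF BSHlow stood out. Its levels were 27.4, 16.2, 20.4 and 54.1 CPM in BF BSHlow and 44.4, 81.5, 62.6 and 54.7 CPM in BF BSHhigh colon. In the same BF BSHlow library Nlrc5 had 10.6 CPM, against 4.85, 2.42 and 2.75 CPM in the other 3, while BF BSHhigh libraries lay closely together between 10.9 and 11.9 CPM. Without that library, Tap1 and Nlrc5 passed the test (2 called, smallest edgeR adjusted p = 0.0347), against 0.286% of all genes in that fit.

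Counted over the 10 genes, 0 were called higher at 2 weeks by edgeR, where 0.00727% of all genes were called higher. Limma-voom also called 0, against 1 of 13753 genes called higher. At an unadjusted p under 0.05, edgeR counted 10 of 10 higher, against 3.83% of all genes. Groups did not overlap for 9 of 10, against 2.09% of all genes. DESeq2 called 6 of 10 higher (H2-K1, H2-D1, B2m, Tapbpl, Psmb8 and Psmb9), against 0.305% of all genes. The median log2 fold change was 0.69 over the 10 genes and -0.002 over all genes tested. Levels of the genes moved together within groups, so these counts are not 10 separate observations. In bulk tissue, more cells of a type and more RNA per cell cannot be told apart. Summed T cell markers (10 of 10 with a log2 fold change above 0, none at 0 in any library of these groups) were between 20.3 and 47.6 CPM in BF BSHlow and between 35.1 and 74.3 CPM in BF BSHhigh colon, and the 3 pan-leukocyte markers were between 36.0 and 68.4 and between 52.1 and 116 CPM. Summed epithelial markers were between 30237 and 38028 CPM in BF BSHlow and between 26485 and 28847 CPM in BF BSHhigh colon. Their part in the result was not tested.

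**Figure D2:**
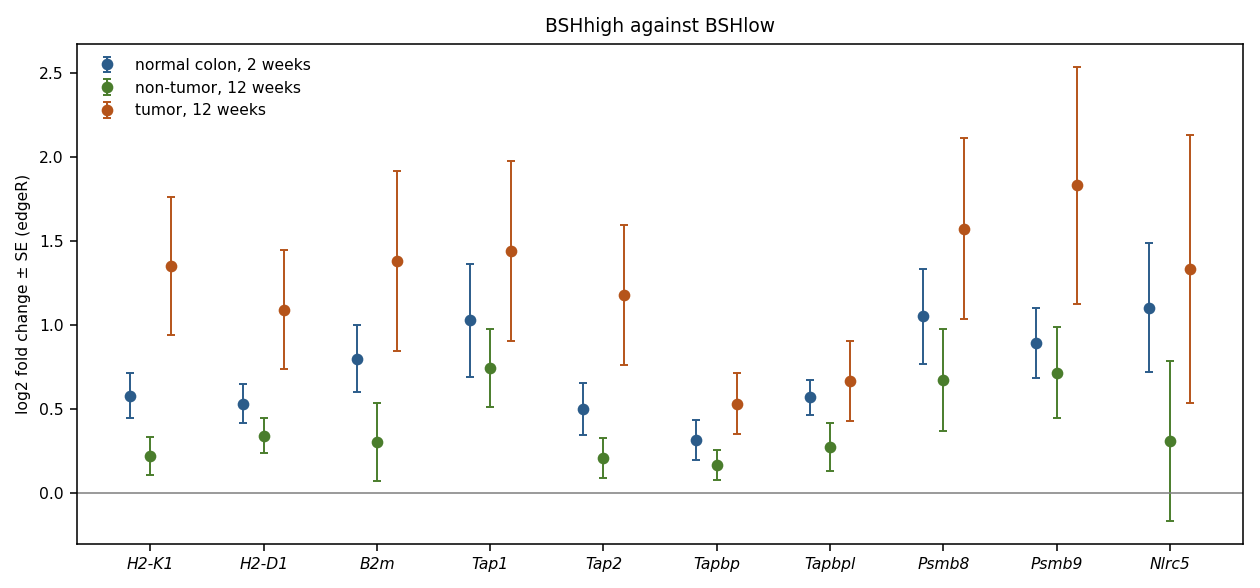
Log2 fold change of BF BSHhigh over BF BSHlow (vertical axis) with its standard error from edgeR (bars) for each gene in normal colon at 2 weeks (blue), non-tumor tissue at 12 weeks (green) and tumors at 12 weeks (orange). All 30 points lie above 0, and none has an adjusted p under 0.05.

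In non-tumor tissue at 12 weeks all 10 genes were again higher on average in BF BSHhigh tissue, by between 1.12-fold (Tapbp) and 1.67-fold (Tap1). Tap1 had 24.8, 21.8, 12.95 and 15.5 CPM in BF BSHlow tissue and 31.6, 22.5, 32.8 and 39.9 CPM in BF BSHhigh tissue. Only replicate 2 of BF BSHhigh fell within the range of BF BSHlow, and the log2 fold change was 0.74 ± 0.23 (SE, edgeR adjusted p = 0.408). H2-D1, a heavy chain, had 613, 648, 639 and 565 CPM in BF BSHlow and 930, 670, 764 and 765 CPM in BF BSHhigh tissue. It was the only member whose groups lay apart, with a log2 fold change of 0.34 ± 0.10 (SE, edgeR adjusted p = 0.408). H2-K1 did not separate in this way (561 to 626 CPM against 586 to 837 CPM), with a log2 fold change of 0.22 ± 0.11 (SE, edgeR adjusted p = 0.609). The immunoproteasome genes Psmb9 and Psmb8 had log2 fold changes of 0.72 ± 0.27 and 0.67 ± 0.30 (SE, edgeR adjusted p = 0.498 and 0.551).

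In these tissues edgeR and limma-voom called 0 of the 10 genes higher, where each called 0% of all 14934 genes. DESeq2 also called 0, where it called 1.02% of all genes higher. At an unadjusted p under 0.05 edgeR counted 3 (H2-D1, Tap1 and Psmb9), against 5.30% of all genes. Groups lay apart for 1 of 10, against 3.23% of all genes. The median log2 fold change was 0.31 over the 10 genes and -0.01 over all genes. Replicate 2 of BF BSHhigh was below its group mean for 9 of the 10 genes. Summed T cell markers overlapped, with 10.7 to 46.2 CPM in BF BSHlow and 13.9 to 53.3 CPM in BF BSHhigh tissue (4 of 9 with a log2 fold change above 0).

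In tumors all 10 genes were higher on average in BF BSHhigh mice, by between 1.44-fold (Tapbp) and 3.56-fold (Psmb9), and again no member passed the adjusted threshold over 15325 genes. The spread between tumors of 1 group was wide. H2-K1 had 391, 213, 270 and 231 CPM in BF BSHlow tumors and 1266, 415 and 454 CPM in BF BSHhigh tumors. Replicate a was far above replicates b and c, yet all 3 were above every BF BSHlow tumor, and the log2 fold change was 1.35 ± 0.41 (SE, edgeR adjusted p = 0.212). H2-D1 had 497, 276, 343 and 339 CPM in BF BSHlow tumors and 1297, 523 and 529 CPM in BF BSHhigh tumors, which also lay apart (log2 fold change 1.09 ± 0.36 (SE), edgeR adjusted p = 0.241).

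B2m overlapped, because replicate 1 of BF BSHlow had 406 CPM. The other BF BSHlow tumors had 118, 162 and 155 CPM and the BF BSHhigh tumors 994, 330 and 347 CPM (log2 fold change 1.38 ± 0.54 (SE), edgeR adjusted p = 0.326). The same library set apart the immunoproteasome subunit gene Psmb9, with 13.8 CPM in replicate 1 and 2.05, 3.81 and 3.96 CPM in the other BF BSHlow tumors, against 41.3, 13.3 and 10.3 CPM in BF BSHhigh tumors (log2 fold change 1.83 ± 0.71 (SE), edgeR adjusted p = 0.325). Nlrc5 had 14.96 CPM there and 1.74, 2.19 and 3.96 CPM in the other 3, against 28.2, 9.11 and 7.24 CPM in BF BSHhigh tumors. It was the member with the widest spread, with a log2 fold change of 1.33 ± 0.80 (SE, edgeR adjusted p = 0.550). For Tap2, the partner of Tap1 in the transporter, no BF BSHlow tumor (23.98, 7.44, 12.2 and 14.6 CPM) reached the BF BSHhigh tumors (51.5, 24.4 and 24.8 CPM), although the highest and the lowest nearly met (log2 fold change 1.18 ± 0.42 (SE), edgeR adjusted p = 0.283).

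Of the 10 genes, edgeR called 0 higher in BF BSHhigh tumors, against 0.470% of all genes. Limma-voom called 0, against 40 of 15325 genes called higher. At an unadjusted p under 0.05 edgeR counted 9, all but Nlrc5, against 8.50% of all genes. Groups lay apart for 4 (H2-K1, H2-D1, Tap2 and Tapbp), against 7.93% of all genes. Those of Tapbp, like those of Tap2, nearly met, at 177.9 CPM in replicate 1 of BF BSHlow and 178.3 CPM in replicate c of BF BSHhigh. DESeq2 called 3 (H2-K1, H2-D1 and Psmb8), against 3.95% of all genes, and edgeR with all 23 libraries in 1 fit called 8 (all but Tap1 and Nlrc5, smallest adjusted p = 0.00376), against 4.58% of all genes in that fit. The median log2 fold change was 1.34 over the 10 genes and -0.03 over all genes.

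A single tumor of each group carried much of these values. Without replicate a of BF BSHhigh, all 10 log2 fold changes stayed above 0 but their median fell to 0.65 (range 0.32 to 0.96), below the 0.69 of normal colon at 2 weeks, with 1 at an unadjusted p under 0.05 in edgeR. Without replicate 1 of BF BSHlow, the median was 1.76 (range 0.64 to 2.68), with 10 at an unadjusted p under 0.05. Neither fit called a member (smallest edgeR adjusted p = 0.670 and 0.105). Markers of other cell types differed between the strains as well. Summed T cell markers were between 12.1 and 28.3 CPM in BF BSHlow and between 45.4 and 59.0 CPM in BF BSHhigh tumors (9 of 9 tested above 0), with Cd8a and Cd8b1 at 0 in at least 1 BF BSHlow tumor. B and plasma cell markers were between 0.781 and 8.06 CPM and between 91.7 and 123 CPM (5 of 5 tested above 0), with Ms4a1 at 0 in at least 1 BF BSHlow tumor. Most of that sum was Jchain, which averaged 1.97 CPM in BF BSHlow and 96.6 CPM in BF BSHhigh tumors. Colon epithelium markers were between 2406 and 4094 CPM in BF BSHlow tumors and were 6118 CPM in replicate a, 3478 in b and 3385 in c of BF BSHhigh (8 of 8 above 0). Their part in the result was not tested.

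**Figure D3:**
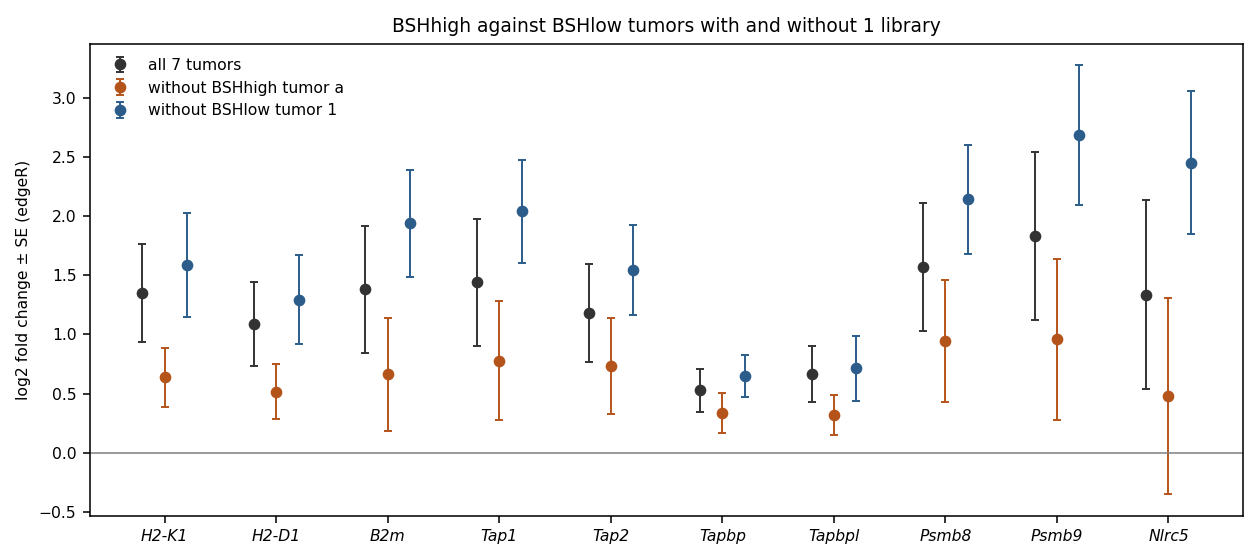
Log2 fold change of BF BSHhigh over BF BSHlow tumors (vertical axis) with its standard error from edgeR for each gene, with all 7 tumors (black), without replicate a of BF BSHhigh (orange) and without replicate 1 of BF BSHlow (blue). All points lie above 0, and leaving out the first library lowers the median from 1.34 to 0.65 while leaving out the second raises it to 1.76.

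Whether the strains differ more in tumors than in non-tumor tissue was tested as an interaction over the 15 libraries of 12 weeks. The strain difference was larger in tumors for all 10 genes, by between 0.38 (Tapbp) and 1.14 (H2-K1) on the log2 scale, but none passed (H2-K1 1.14 ± 0.44 (SE), edgeR adjusted p = 0.366). EdgeR called 0 of 10, against 0.978% of all genes called with a larger difference in tumors, and counted 2 (H2-K1 and Tap2) at an unadjusted p under 0.05, against 7.36% of all genes. DESeq2 called 0 as well, against 399 of 16455 genes called with a larger difference in tumors. Limma-voom called 0 of all genes in this comparison. Without replicate a of BF BSHhigh the median fell from 0.95 to 0.24. The non-tumor and tumor libraries may come from the same mice, which the labels do not say.

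Between the tissues of BF BSHlow mice, 4 of the 10 genes were called lower in tumors than in non-tumor tissue, against 32.2% of all genes. Tapbpl had 50.1, 44.4, 56.9 and 36.6 CPM in non-tumor tissue and 23.98, 20.3, 20.6 and 24.2 CPM in tumors, and fell by 1.09 ± 0.20 on the log2 scale (SE, edgeR adjusted p = 0.000243). Tap2 was between 29.0 and 35.0 CPM in non-tumor tissue and between 7.44 and 23.98 CPM in tumors, and fell by 1.15 ± 0.30 (SE, edgeR adjusted p = 0.00407). H2-K1 had 598, 562, 626 and 592 CPM in non-tumor tissue, and in the tumors listed above it fell by 1.12 ± 0.30 (SE, edgeR adjusted p = 0.00470). H2-D1 fell by 0.77 ± 0.26 (SE, edgeR adjusted p = 0.0169). These are the 4 genes whose groups lay apart. Tap1, the partner of Tap2, did not pass, with a log2 fold change of -0.15 ± 0.42 (SE, edgeR adjusted p = 0.766), and Psmb9 came close with -1.24 ± 0.54 (SE, edgeR adjusted p = 0.0565).

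The count of 4 called lower stood against 32.2% of all 16455 genes called lower, and the 4 of 10 lying apart against 27.7%. Both counts were thus near the shares over all genes. DESeq2 and edgeR with RLE scaling each called 6 lower (with Tapbp and Psmb9), against 33.9% and 33.3% of all genes. Without tumor replicate 1, 8 were called lower (all but Tap1 and Nlrc5), against 32.0% of all genes. In BF BSHhigh mice only Tapbpl was called lower in tumors, with 57.8, 56.9, 47.3 and 66.3 CPM in non-tumor tissue and 50.9, 32.8 and 23.5 CPM in tumors. It fell by 0.68 ± 0.21 (SE, edgeR adjusted p = 0.0137). The heavy chains were close to 0, at 0.03 ± 0.32 for H2-K1 and -0.01 ± 0.28 for H2-D1 (SE), so that no direction is given for them. The count of 1 of 10 called lower stood against 27.2% of all genes called lower in these mice. None of the 10 lay apart as lower, against 29.0% of all genes. Without replicate a 3 were called (H2-K1, H2-D1 and Tapbpl), against 25.5% of all genes, and without replicate b or c none was called. The comparisons of tissues share their tumor libraries with the comparison of strains, so they are not independent of it.

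Other cell types differed between the tissues as well. In BF BSHlow mice, smooth muscle markers (6 of 6 called lower) summed to between 1513 and 8467 CPM in non-tumor tissue and to between 116 and 251 CPM in tumors, and B and plasma cell markers (7 of 7 called lower) to between 156 and 1729 and between 0.781 and 8.06 CPM. Colon epithelium markers, among them genes of mature absorptive cells, were called lower for 8 of 8. Over all genes, 32.2% were called lower in this comparison. Their part in the lower levels of the class I genes was not tested.

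From 2 to 12 weeks outside tumors, 9 of the 10 genes were called lower at the later time in BF BSHhigh mice and 5 in BF BSHlow mice. In BF BSHhigh mice these were all but Nlrc5. H2-K1 fell from 1592 to 1917 CPM at 2 weeks to 586 to 837 CPM at 12 weeks, by 1.37 ± 0.12 on the log2 scale (SE, edgeR adjusted p = 9.88e-07). B2m had 998, 1334, 857 and 1124 CPM at 2 weeks and 544, 256, 416 and 374 CPM at 12 weeks, and fell by 1.43 ± 0.23 (SE, edgeR adjusted p = 0.000146). For all 10 genes, Nlrc5 included, every library of 12 weeks was below every library of 2 weeks. The other 7 called genes fell by between 0.57 (Tapbpl) and 0.93 (Tap1).

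The 5 genes of BF BSHlow mice were H2-K1, which fell by 1.02 ± 0.12 (SE, edgeR adjusted p = 1.16e-05), B2m by 0.95 ± 0.23 (0.00316), Psmb9 by 0.71 ± 0.26 (0.0342), Tapbp by 0.48 ± 0.10 (0.00155) and H2-D1 by 0.42 ± 0.11 (0.00402). Groups lay apart for 4 of them, all but Psmb9. Nlrc5 did not differ beyond its spread (log2 fold change 0.00 ± 0.51 (SE), edgeR adjusted p = 0.996). The shares called lower over all 15533 genes were 22.7% in BF BSHhigh and 23.5% in BF BSHlow mice, and the shares lying apart as lower 22.8% and 18.2%. With all 23 libraries in 1 fit the counts were 5 and 3, against 21.1% and 21.0% of all genes. The labelled tissue also differs between these times (normal colon against non-tumor tissue of tumor-bearing colon), and so do the time on HFD and the age of the mice, which cannot be told apart. Of 7 MHC class II genes, 6 were called higher at 12 weeks in BF BSHlow mice, where 25.6% of all genes were called higher, and 1 in BF BSHhigh mice, where 27.0% were, and none was called lower. Epithelial markers summed to between 26485 and 38028 CPM at 2 weeks and to between 8372 and 13896 CPM at 12 weeks. Macrophage and dendritic cell markers were called higher for 8 of 8 in both strains, against the same 25.6% and 27.0% of all genes. Their part in the result was not tested.

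**Figure D4:**
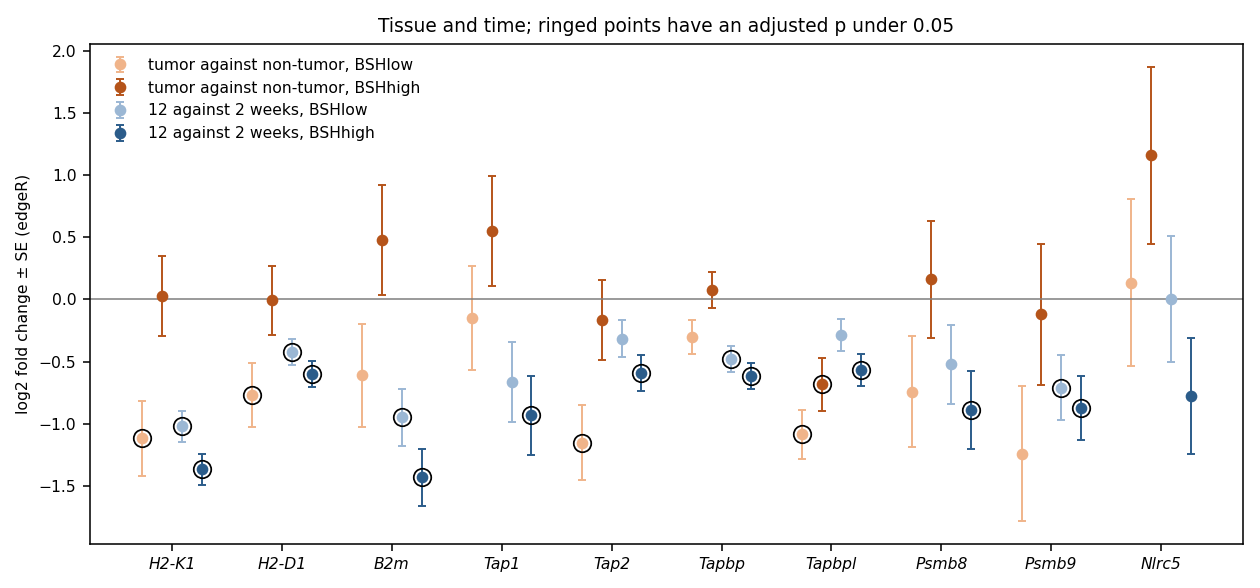
Log2 fold change (vertical axis) with its standard error from edgeR for each gene, for tumors over non-tumor tissue in BF BSHlow (light orange) and BF BSHhigh mice (dark orange) and for 12 over 2 weeks outside tumors in BF BSHlow (light blue) and BF BSHhigh mice (dark blue). Rings mark an adjusted p under 0.05, which 9 genes reach for time in BF BSHhigh mice and 1 gene reaches for tissue in BF BSHhigh mice.

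The heavy chains did not fall by the same amount between the times. The ratio of H2-K1 to H2-D1 per kilobase was between 1.17 and 1.44 in all 8 libraries of 2 weeks and between 0.599 and 0.920 in all 15 libraries of 12 weeks. At 12 weeks it was between 0.761 and 0.920 in BF BSHlow and between 0.672 and 0.839 in BF BSHhigh non-tumor tissue, and between 0.599 and 0.691 in BF BSHlow and between 0.697 and 0.857 in BF BSHhigh tumors. This ratio was chosen after its values were seen and was not tested, it rests on reads shared out between similar genes, and the cause of the shift was not tested.

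The inducible proteasome genes were set against the constitutive subunits that they replace, as a ratio per kilobase within each library. The size of a ratio depends on the exon lengths used, while its comparison between groups does not. Psmb8 over Psmb5 averaged 0.119 ± 0.0635 (SD, n = 4) in BF BSHlow and 0.233 ± 0.0533 (n = 4) in BF BSHhigh colon at 2 weeks. In tumors it averaged 0.0315 ± 0.0233 (n = 4) in BF BSHlow and 0.0985 ± 0.0562 (n = 3) in BF BSHhigh mice, and replicate 1 of BF BSHlow (0.0654) was as high as replicates b (0.0667) and c (0.0653) of BF BSHhigh. Psmb9 over Psmb6 was between 0.00850 and 0.0623 in BF BSHlow tumors and between 0.0432 and 0.168 in BF BSHhigh tumors. Psmb10, the remaining inducible subunit, was the most abundant relative to its counterpart, with Psmb10 over Psmb7 between 1.73 and 3.70 at 2 weeks, between 1.19 and 2.30 in non-tumor tissue and between 0.367 and 1.54 in tumors. For this pair BF BSHhigh tumors (0.681 to 1.54) lay above BF BSHlow tumors (0.367 to 0.642).

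**Figure D5:**
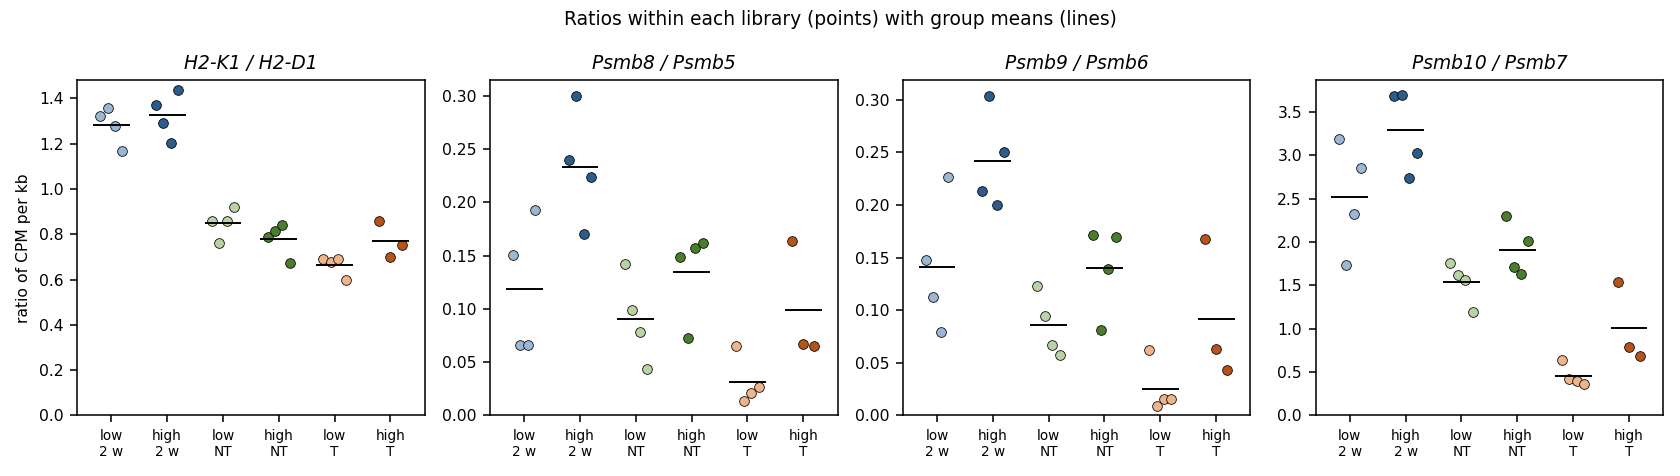
Ratios of CPM per kilobase within each library (vertical axis, from 0) for H2-K1 over H2-D1 and for each inducible proteasome subunit over its constitutive counterpart (points), with group means as lines. The heavy chain ratio lies above 1.1 in all libraries of 2 weeks and below 0.93 in all libraries of 12 weeks.

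Genes around the pathway were taken from lists put together by function, and up to 4 genes of each list with the smallest p in tumors are named. Between the strains, edgeR counted 8.50% of all genes as higher at an unadjusted p under 0.05 in tumors. In non-tumor tissue this share was 5.30% and at 2 weeks 3.83%. EdgeR called 0.470%, 0% and 0.00727% higher in that order, and DESeq2 3.95%, 1.02% and 0.305%. These shares apply to every list below. The 3 constitutive subunits Psmb5, Psmb6 and Psmb7 had log2 fold changes of -0.13, -0.07 and -0.05 in BF BSHhigh tumors, and in the 3 comparisons of the strains edgeR and DESeq2 called 0 of 3, with 0 at an unadjusted p under 0.05. They were called higher in tumors than in non-tumor tissue in both strains (3 of 3), where 33.3% (BF BSHlow) and 29.4% (BF BSHhigh) of all genes were called higher. No class I member was called in that direction. Of 5 further proteasome genes, 0 were called between the strains in tumors by edgeR, 2 were higher at an unadjusted p under 0.05 and DESeq2 called 1. Psmb10 had a log2 fold change of 1.13 ± 0.32 (SE, edgeR adjusted p = 0.175), the activator subunit genes Psme2 and Psme1 had 0.49 ± 0.16 and 0.34 ± 0.15, and Psme3 had -0.16 ± 0.10. From 2 to 12 weeks 4 of these 5 were called lower in each strain, against 23.5% (BF BSHlow) and 22.7% (BF BSHhigh) of all genes.

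Among 19 other class I and class I-like chains, 16 could be tested in tumors. EdgeR called 0 and counted 8 as higher at an unadjusted p under 0.05, against 8.50% of all genes. DESeq2 called 2, against 3.95% of all genes called higher. The chains with the smallest p were H2-Q2 (log2 fold change 1.67 ± 0.48 (SE), edgeR adjusted p = 0.183), H2-Q4 (1.24 ± 0.40), H2-Q7 (2.21 ± 0.76) and H2-T23 (0.79 ± 0.28). The list's median was 0.80 in tumors, 0.19 in non-tumor tissue and 0.46 at 2 weeks, where edgeR called 0 of 16 and 0 of 19, 0 and 7 were higher at an unadjusted p under 0.05, and DESeq2 called 0 and 4. Chaperones and trimming enzymes had medians of -0.01, 0.03 and 0.01 in the same order, with 0 of 11 called by edgeR and DESeq2 in each, and 1, 2 and 0 higher at an unadjusted p under 0.05. In tumors this was Erap1, a trimming aminopeptidase (log2 fold change 0.62 ± 0.19 (SE), edgeR adjusted p = 0.211), while Tpp2 had -0.17 ± 0.10, Lap3 -0.30 ± 0.17 and Calr 0.18 ± 0.14.

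Of 14 regulators of class I transcription, 0 were called by edgeR in tumors, 4 were higher at an unadjusted p under 0.05, and DESeq2 called 2. Over all genes, 8.50% were higher at that unadjusted p in edgeR, and DESeq2 called 3.95% higher. Irf1, an interferon-induced activator, had 34.3, 44.4, 45.2 and 33.1 CPM in BF BSHlow tumors and 156, 81.7 and 68.0 CPM in BF BSHhigh tumors, which lay apart. Its log2 fold change was 1.36 ± 0.27 (SE, edgeR adjusted p = 0.0705), that of Irf8 0.80 ± 0.28 and that of Irf2 0.26 ± 0.11. Of 9 genes tested from the interferon gamma axis, 9 had a log2 fold change above 0, edgeR called 0, 3 were higher at an unadjusted p under 0.05, and DESeq2 called 1. Ifngr1, a receptor chain, had 0.77 ± 0.15 (adjusted p = 0.0666), and the induced genes Cxcl10, Gbp2 and Ido1 had 2.13 ± 0.75, 2.50 ± 0.96 and 2.58 ± 1.16. Ifng itself did not pass the filter on low counts in tumors, with at most 0.569 CPM in any tumor. At 2 weeks edgeR called 0 of the regulators and 0 of the interferon axis genes, with 1 and 5 higher at an unadjusted p under 0.05 and 1 and 1 called by DESeq2. In non-tumor tissue edgeR again called 0 of each, with 5 and 3 higher at an unadjusted p under 0.05 and 1 and 0 called by DESeq2.

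MHC class II genes, which present peptides taken up from outside the cell, are given beside the class I members, with no test of the lists against each other. In tumors 7 of 7 had a log2 fold change above 0 (median 1.20), with 0 called by edgeR and DESeq2 and 0 at an unadjusted p under 0.05 in edgeR (Ciita 1.52 ± 0.85, H2-DMa 1.11 ± 0.66, H2-Ab1 1.26 ± 0.76 and H2-DMb1 0.99 ± 0.60). At 2 weeks the median was 1.22, above that of the class I members (0.69), with 7 of 7 at an unadjusted p under 0.05, 0 called by edgeR and 2 by DESeq2. Of all genes, 3.83% were higher at that unadjusted p in edgeR at 2 weeks, and DESeq2 called 0.305% higher. In non-tumor tissue at 12 weeks it was 0.11, below that of the class I members (0.31).

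Within groups, the members varied together. Over deviations of log2 CPM from the group means in 23 libraries, the 45 pairs of members had Pearson correlations between 0.40 and 0.95 (median 0.81), which are given as a description, since points of a group share its mean and replicate a of BF BSHhigh and replicate 1 of BF BSHlow carry large deviations (0.89 and 0.92 on the log2 scale on average, with 10 of 10 members above the group mean in each). Without replicate a the median was 0.79. H2-K1 and H2-D1 were the closest pair (0.95), as genes that share reads may be, and B2m and Psmb9, which share neither reads nor chromosome, followed with 0.94.

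The 10 genes outside the list with the most similar profile, among 9887 genes of at least 10 CPM, were H2-Q4 (Pearson correlation 0.93 with the mean profile of the members), H2-T22 (0.91), Unc93b1 (0.90), Uba7 (0.89), Irf7 (0.89), H2-Q7 (0.88), Sp110 (0.88), Tgtp2 (0.87), Psmb10 (0.86) and H2-Q6 (0.85). H2-Q4, H2-T22, H2-Q7 and H2-Q6 are further class I chains, and Irf7 encodes an interferon regulatory factor. Without replicate a of BF BSHhigh these correlations were between 0.80 and 0.92.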

How the data were processed

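Per the study's methods, Cutadapt, STAR (mm10) and RSEM were used (versions not given in the sources used here), and the values that the authors deposited are unnormalized gene-level expected counts. All 55449 gene IDs match GENCODE M21, and 4.24% of values are not whole. One gene with text in a cell and 1 row with no gene name were left out. Labels and methods differ in the library kit (mRNA or total RNA) and in the gavage interval. Headers of the 3 BF BSHhigh tumor columns repeat the names of other samples, and these columns were identified as a group through values in a supplementary table of the study (1996 of 1996, 1997 of 1997 and 1997 of 1997 rows equal within 0.5 counts). No 2 libraries of a group agreed within sampling noise (chi-square per degree of freedom 16.6 to 126 in 33 pairs). Labels do not say that replicates are separate mice, so p-values measure the spread between these libraries.

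Counts were rounded. EdgeR 4.0.16 in R 4.3.3 fitted quasi-likelihood models (TMM scaling, filterByExpr), and p-values were adjusted over all genes tested by Benjamini-Hochberg, with a threshold of 0.05. Strains were compared within each tissue in the libraries of that tissue alone, tissues and the interaction in the 15 libraries of 12 weeks, and times in the 16 libraries outside tumors. Alternatives were DESeq2 1.42.0, limma-voom (limma 3.58.1), RLE and upper-quartile scaling, other filters, wider fits, a replicate block and 1 library left out at a time. On simulated counts for tumors (15325 genes, 200 changed by 2 on the log2 scale), 157 were recovered with 5 false calls. The members differed by less in tumors (0.53 to 1.83, median 1.34), so this does not give the recovery of changes of their size. The members, lists, tests and motifs were chosen with earlier results of these data known. Named are all 10 members, up to 4 genes per pathway list with the smallest p in tumors, and the 10 genes of at least 10 CPM most correlated with the mean of the members. Some items are not reported here. Log2 CPM used a prior count of 2. Tables and figures were made with Python 3.11.15 (pandas 2.3.3, matplotlib 3.10.9).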

Additional observations from a re-analysis of the deposited data

Results flagged for a closer look

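In 5 of 50 groups of 4 libraries tested for a member, 1 library lay far from the other 3 by Dixon's criterion, which chance alone meets in about 1 of 20 groups. In 4 of them this was replicate 1 of the BF BSHlow tumors, with 406 CPM of B2m (other tumors 118 to 162 CPM), 33.8 CPM of Tap1 (9.74 to 13.4 CPM), 13.8 CPM of Psmb9 (2.05 to 3.96 CPM) and 14.96 CPM of Nlrc5 (1.74 to 3.96 CPM). In that library summed macrophage and dendritic cell markers were 858 CPM (317 to 714 CPM in the other 3), Ciita was 8.58 CPM (0.879 to 1.52 CPM) and Gbp2 29.0 CPM (2.36 to 5.34 CPM). The part of these in the class I levels was not tested. The remaining one was Tapbpl in replicate 1 of BF BSHlow colon at 2 weeks, with 68.8 CPM against 51.7 to 54.1 CPM.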

How the results depend on the processing

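All 10 members kept log2 fold changes above 0 for BF BSHhigh over BF BSHlow in each of the 3 tissues and in the interaction under every alternative run. Of 1300 alternative log2 fold changes of the members, 1211 stayed on the same side of the threshold with the same direction, 19 lost the call, 34 gained it and 36 changed direction, the last only for differences of tissue or time.

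The counts called moved as follows, and the cause was not tested. In tumors DESeq2 called 3 and the fit of all 23 libraries 8 in place of 0, against 3.95% and 4.58% of all genes called higher. At 2 weeks DESeq2 called 6 in place of 0, against 0.305% of all genes. With an absolute log2 fold change over 1 also required, 0 in place of 1 were called for tissue in BF BSHhigh mice. There 4771 of 16455 genes passed both thresholds in either direction. For time the counts were 1 in place of 5 (BF BSHlow) and 2 in place of 9 (BF BSHhigh). There 3810 and 3714 of 15533 genes passed both. In the fit of all 23 libraries the counts for time were 3 (BF BSHlow) and 5 (BF BSHhigh), against 21.0% and 21.1% of all genes called lower. For tissue in BF BSHlow mice DESeq2 and RLE scaling called 6 in place of 4, against 33.9% and 33.3% of all genes called lower. Limma-voom and the fit of all 23 libraries called 5, against 5245 of 16455 and 5259 of 16754 genes called lower. Both thresholds gave 3, where 5896 of 16455 genes passed in either direction. Leaving out 1 library gave counts between 0 and 2 at 2 weeks, 4 and 8 for tissue in BF BSHlow mice, 0 and 3 for tissue in BF BSHhigh mice, 4 and 7 for time in BF BSHlow mice, and 7 and 9 for time in BF BSHhigh mice. The highest counts at 2 weeks and for tissue stood against 0.286%, 32.0% and 25.5% of all genes. For time in BF BSHlow mice the highest count stood against 3286 of 15781 genes called lower. In the BF BSHhigh fits with 9 called, all genes called lower ranged from 3074 of 15748 to 3491 of 15734.

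Directions changed for tissue in BF BSHlow mice for Nlrc5 (-0.247 with limma-voom, -0.192 with the replicate block, -0.982 to 0.415 leaving out 1 library) and Tap1 (-0.751 to 0.011 leaving out 1 library). For tissue in BF BSHhigh mice they changed for H2-K1 (-0.026 with DESeq2 and RLE scaling, -0.150 with limma-voom) and H2-D1 (0.027 with upper-quartile scaling, 0.003 with no filter, 0.001 with all 23 libraries). Leaving out 1 library there gave -0.684 to 0.307 for H2-K1, -0.582 to 0.220 for H2-D1, -0.242 to 0.751 for B2m, -0.110 to 0.822 for Tap1, -0.614 to 0.023 for Tap2, -0.116 to 0.199 for Tapbp, -0.466 to 0.422 for Psmb8 and -0.989 to 0.221 for Psmb9, the lowest value always without replicate a. For time in BF BSHlow mice Nlrc5 had -0.011 with limma-voom, -0.004 with no filter and -0.285 to 0.613 leaving out 1 library.

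Correlations of same-numbered libraries lay between -0.243 and 0.334, and at most 1 of 4 pairs of a comparison correlated best with its own number. Of the comparisons checked, only that of tissues in BF BSHlow mice could hold libraries of the same mouse. Its correlations were 0.229, -0.141, -0.0043 and 0.0906. A tumor need not resemble other tissue of its mouse, so these values do not show whether replicate numbers pair the libraries. The fit with the replicate block called 0 at 2 weeks and 0 in non-tumor tissue. Over all genes it called 0 of 13753 and 1 of 14934 higher there. For tissue in BF BSHlow mice it called 5, against 4348 of 15179 genes called lower. For time it called 4 (BF BSHlow) and 9 (BF BSHhigh), against 2454 of 14555 and 3109 of 14638 genes called lower. No paired analysis was possible because the columns of BF BSHhigh tumors carry no number, for comparisons with those tumors. Median totals per group lay between 15171937 and 16847840 expected counts, and Nlrc5, at 1.74 CPM in its lowest library, is the member with the fewest counts.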
